A study of Mus musculus with 7 samples.

Results

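Immunoglobulin heavy chain variable genes (Ighv) were read in LSK cells, the bone marrow (BM) cells without lineage markers that carry Sca1 and cKit and contain the hematopoietic stem and progenitor cells. The members were all genes of the normalized count table whose symbol begins with Ighv and whose count was above 0 in at least 1 library, which held for 139 of 185 Ighv genes and of 48440 genes in all. RNA came from LSK cells sorted 77 days after BM from wild-type (WT) mice, in 4 libraries, or from PROSER1 KO mice, which carry a constitutive deletion made with an endonuclease, in 3 libraries, had been given to C57BL/6 recipients irradiated with 9.5 Gy. All 7 libraries thus share the irradiation and the transplantation, none had a further treatment, and the ages of these animals are not given in the sources used here. The labels call the libraries biological replicates without naming animals or pools, so p-values rest on the spread between these libraries. In limma the variance of a gene is also drawn toward that of all tested genes, which vary less than most Ighv genes. Host cells that outlived the irradiation cannot be told from donor cells in these counts.

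A heavy chain variable gene encodes the V part of an antibody heavy chain. In developing B cells the RAG recombinase joins 1 V gene to a D and a J segment, after which the promoter of that V gene drives the complete heavy chain transcript. Antibody-secreting plasma cells hold far more heavy chain RNA than other B-lineage cells, and a clone keeps the V gene it has joined. Lymphoid progenitors can also transcribe V genes that have not been joined. The V genes fall into families of similar sequence, of which Ighv5 and Ighv2 (Q52) lie mostly near the D segments and Ighv1 (J558) mostly far from them.

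The libraries held 33143619 to 45140743 read pairs on genes, so that 3 read pairs, the most that a count of 0 allows, equal 2.54 to 3.48 normalized counts (counting error only). A normalized count is the number of read pairs divided by 1 size factor per library. Proser1 itself was not lower in the libraries labelled PROSER1 KO (2338 to 2464 normalized counts, against 2019 to 2153 in WT), so each direction between genotypes rests on the labels. Kit and Ly6a, which encode the cKit and Sca1 of the sort, were present in every library (25535 to 32357 and 3961 to 6822).

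For 2 gene pairs described below, the first 300 coding bases of each V exon are printed. Ighv11-2 was the highest Ighv gene of every library, and Ighv11-1 is its near copy, with capitals at the 4 of 300 bases where they differ (98.7% identity). Both printed stretches are read on the minus strand of GRCm38, at chr12:114048248-114048547 and chr12:113981886-113982185.
Ighv11-2: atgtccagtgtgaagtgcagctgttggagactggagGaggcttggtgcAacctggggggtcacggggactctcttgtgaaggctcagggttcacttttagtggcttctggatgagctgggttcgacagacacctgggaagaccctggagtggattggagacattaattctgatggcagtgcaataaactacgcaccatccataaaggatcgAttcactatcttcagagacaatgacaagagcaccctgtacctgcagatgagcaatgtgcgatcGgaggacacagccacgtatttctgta
Ighv11-1: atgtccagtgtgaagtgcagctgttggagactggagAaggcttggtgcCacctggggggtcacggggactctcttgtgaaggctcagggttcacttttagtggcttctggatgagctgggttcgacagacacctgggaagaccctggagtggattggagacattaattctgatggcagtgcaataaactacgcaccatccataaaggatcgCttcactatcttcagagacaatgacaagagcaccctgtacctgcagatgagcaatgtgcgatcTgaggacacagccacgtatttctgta
Ighv3-8 was the 1 Ighv gene that passed between the genotypes in limma, and it did not pass in 5 of 17 other settings. Ighv3-6 is the highest member of the same family. Capitals mark, in both, the bases that differ or have no partner in 1 alignment of the pair, which matched 88.7% of 300 columns, 3 of the others being bases found in Ighv3-6 alone. The printed stretches lie on the minus strand at chr12:114322378-114322677 and chr12:114288159-114288458.
Ighv3-8: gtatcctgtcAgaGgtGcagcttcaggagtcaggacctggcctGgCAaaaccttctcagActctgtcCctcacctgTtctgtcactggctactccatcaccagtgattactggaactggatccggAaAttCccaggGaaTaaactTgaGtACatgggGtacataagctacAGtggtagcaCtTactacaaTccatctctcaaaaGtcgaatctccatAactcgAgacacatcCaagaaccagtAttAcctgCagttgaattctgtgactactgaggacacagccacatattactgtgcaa
Ighv3-6: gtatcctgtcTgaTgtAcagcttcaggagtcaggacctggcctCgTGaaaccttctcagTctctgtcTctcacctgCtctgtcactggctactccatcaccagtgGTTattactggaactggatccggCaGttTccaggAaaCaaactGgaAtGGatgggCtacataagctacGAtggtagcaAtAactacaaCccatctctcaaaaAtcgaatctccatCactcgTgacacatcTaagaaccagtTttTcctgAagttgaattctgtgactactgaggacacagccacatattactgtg

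The Ighv genes together had normalized counts of 377718, 294705, 215411 and 535116 in the WT libraries, in the order of their replicate numbers, and 295645, 264265 and 400637 in the PROSER1 KO libraries. These sums made up 0.565% to 1.31% of all normalized counts of a library. WT replicate 4 was highest and WT replicate 3 lowest, and the PROSER1 KO libraries all lay between them. The mean sum was 355738 ± 136719 (SD, n = 4) in WT and 320182 ± 71421 (SD, n = 3) in PROSER1 KO, with a log2 ratio of -0.15, which became 0.11 without WT replicate 4. In bulk RNA, fewer cells of a type and less RNA per cell cannot be told apart.

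Of the 139 members, 94 were above 0 in all 7 libraries, 8 were above 0 in 1 library only, and 10 did not pass 3 read pairs in any library. The annotation lists 108 of them as functional V genes, 30 as V pseudogenes and 1 as an LV gene. The functional genes held at least 99.9% of the Ighv signal in every library, and the highest pseudogene had a mean of 36.3. All 59 members with a mean of at least 1000 were functional. Among the 113 functional Ighv genes of the table, 5 were at 0 in every library: Ighv5-12-4, Ighv7-2, Ighv6-7, Ighv1-16 and Ighv1-24, which were picked out after their values were seen. Between 51.0% and 100% of their 50-base stretches occur in no other Ighv gene. Just inside the rule, Ighv16-1, Ighv8-13 and Ighv1-86 had 1 read pair in 1 library each, and the 46 Ighv genes outside it were at 0 throughout.

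Ighv11-2 (ENSMUSG00000096108, chromosome 12, 114048241 to 114048812, minus strand, GRCm38) led the Ighv genes in 7 of 7 libraries. It is 1 of the V genes known from antibodies of B-1a cells that bind phosphatidylcholine. Its normalized counts were 58498, 49486, 46144 and 75262 in WT and 52435, 32711 and 56539 in PROSER1 KO. The groups overlapped, with PROSER1 KO replicate 2 the lowest and WT replicate 4 the highest. It held 15.5%, 16.8%, 21.4% and 14.1% of the Ighv signal in the WT libraries and 17.7%, 12.4% and 14.1% in the PROSER1 KO libraries. Per kb of exon its mean was 114991, against 44563 for Ighv8-8 and 43686 for Ighv4-1, the next genes on that scale, and it led in 7 of 7 libraries on that scale also. Between the genotypes it changed by -0.29 on the log2 scale (SE 0.21, limma adjusted p = 0.694), which did not pass.

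Its near copy Ighv11-1 (ENSMUSG00000094533) lies 65.9 kb closer to the D segments and had only 15.4, 2.70, 64.4 and 12.8 normalized counts in WT and 91.8, 371 and 404 in PROSER1 KO. Ighv11-2 was thus 295 times as high per kb of exon (ratio of means), and the ratio of normalized counts within a library ran from 88.1 to 18298. The highest ratio is that of WT replicate 2, where Ighv11-1 was at the limit of 3 read pairs, so its size is uncertain. Since 47.7% of the 50-base stretches of Ighv11-1 and 61.4% of those of Ighv11-2 are found in no other Ighv gene, reads from the shared part could not be assigned with certainty. Ighv12-3, the leading gene of the other family known for phosphatidylcholine binding, was low beside it: Ighv11-2 was 24.2 times as high per kb of exon.

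**Figure D1:**
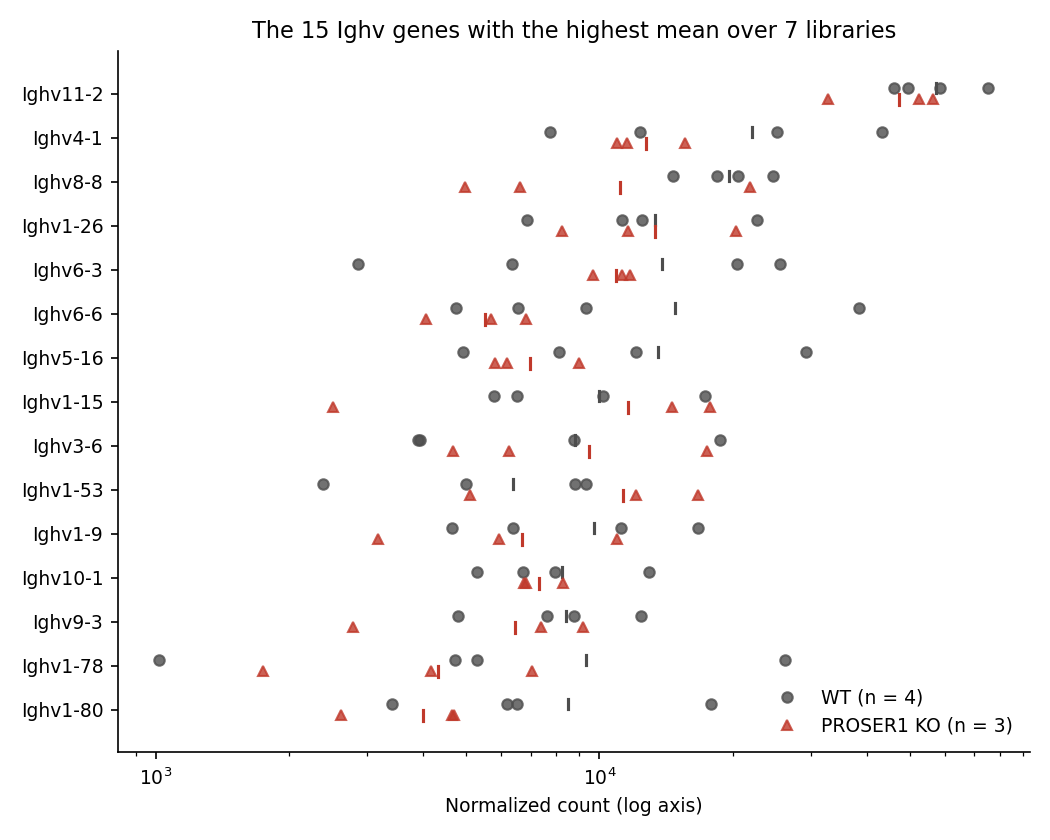
Normalized counts (log axis) of the 15 Ighv genes with the highest mean, 1 point per library, grey circles for WT (n = 4) and red triangles for PROSER1 KO (n = 3), with short bars at the group means. Ighv11-2 lies to the right of the other genes, at 32711 to 75262, and in each row the groups overlap.

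Below Ighv11-2 the order differed from library to library. The 3 highest genes of each library came from 12 different genes, and 24 genes entered the 10 highest of any library, but only Ighv11-2, Ighv4-1 and Ighv1-26 did so in all 7. Ighv4-1, the main gene of the X24 family, had 43294, 7727, 12311 and 25162 normalized counts in WT and 11558, 10946 and 15604 in PROSER1 KO, so it was 11.5% of the Ighv signal in WT replicate 1 and 2.62% in WT replicate 2. Ighv8-8 of the Ighv8 family had 20509, 14685, 24653 and 18379 in WT and 6626, 4986 and 21838 in PROSER1 KO. 1 library of the PROSER1 KO group, replicate 3, thus lay among the WT values and the other two lay below them. The change was -1.10 on the log2 scale (SE 0.42, limma adjusted p = 0.435). Without PROSER1 KO replicate 3, the library among the WT values, it passed, at -1.74 (SE 0.19, limma adjusted p = 0.0228). It did not pass in the other 16 of 17 settings, with limma adjusted p of 0.499 to 0.658 when other single libraries were left out.

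Ighv1-26, of the large J558 family, was more even, with 11261, 12496, 6872 and 22620 in WT and 8221, 11596 and 20283 in PROSER1 KO. Ighv6-3 of the J606 family had 25566, 6359, 2851 and 20428 in WT and 9684, 11708 and 11264 in PROSER1 KO, with the widest values in WT. Ighv6-6 of the same family reached 38549 in WT replicate 4 but only 4065 to 9333 in the other libraries. Ighv1-80 reached 17848 in WT replicate 2 against 2620 to 6502 in the other libraries. Ighv1-82 was at 15990 in PROSER1 KO replicate 1 and 10758 in WT replicate 2 and at 2271 to 3458 in the other 5 libraries. Ighv1-53 was at 16706 and 12065 in PROSER1 KO replicates 2 and 3 and at 2380 to 9333 in the other 5. Ighv1-39 was at 15490 and 10958 in PROSER1 KO replicates 2 and 3 and at 531 to 2058 in the other 5 libraries, PROSER1 KO replicate 1 included. Ighv5-16, Ighv1-15, Ighv3-6, Ighv1-9, Ighv10-1, Ighv9-3 and Ighv1-78 complete the 15 genes with the highest means, and 0 of the 15 passed in limma over all 7 libraries. With single libraries left out, Ighv8-8 passed only without PROSER1 KO replicate 3, as given above.

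This spread between libraries of the same genotype was wide for most Ighv genes. The within-group SD of log2(normalized count + 1) had a median of 1.00 over the 59 members with a mean of at least 1000, against 0.080 over the 7400 other genes at that level. The highest of the 7 libraries exceeded the lowest by a median of 7.04 times over these 59 members, from 2.30 times for Ighv11-2 to 71.4 times for Ighv1-12. The ratio was under 3 for 6 genes (Ighv11-2, Ighv10-1, Ighv1-72, Ighv1-58, Ighv1-18 and Ighv1-55) and over 10 for 18. Ighv10-1, the next most even gene after Ighv11-2, had 7933, 5285, 6741 and 12944 normalized counts in WT and 8279, 6770 and 6821 in PROSER1 KO. Ighv1-12, the least even, had 825, 708, 700.0 and 3078 in WT and 49.0, 1303 and 3500 in PROSER1 KO. The extremes of this ratio were named after their values were seen.

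**Figure D2:**
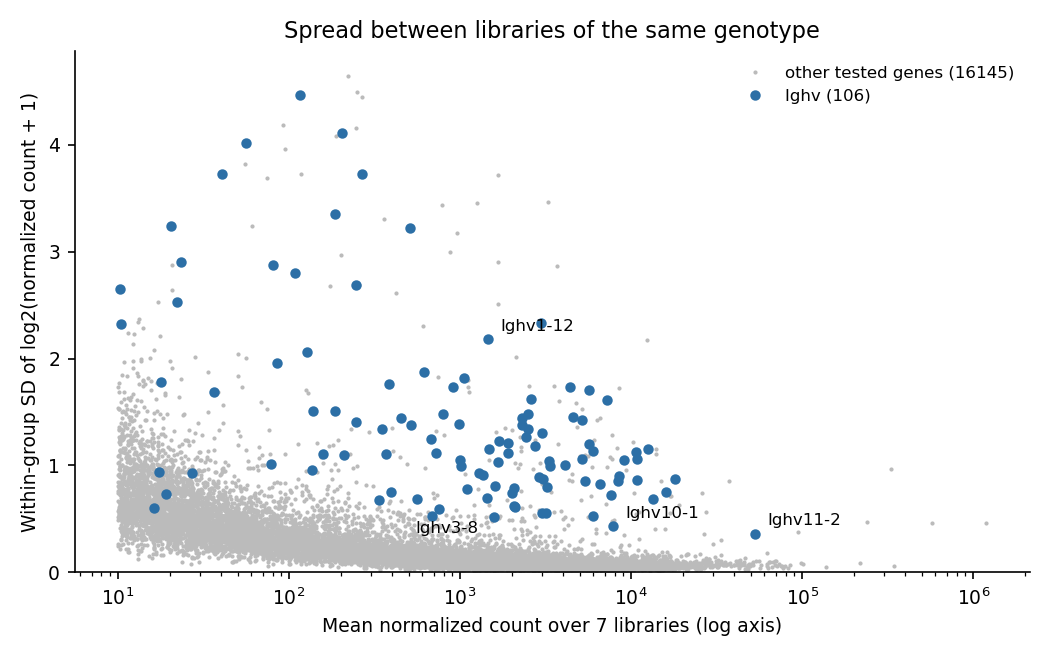
Within-group SD of log2(normalized count + 1) against the mean normalized count (log axis) for the 106 tested Ighv genes (blue) and the other tested genes (grey). Most Ighv genes lie above the grey band, with a median SD of 1.13 against 0.134 over all tested genes, and Ighv11-2 and Ighv10-1 lie lowest among the high Ighv genes.

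Libraries were compared by their whole Ighv profile, as a description over the 106 genes with a mean of at least 10. Spearman's rho was 0.81 to 0.87 in the 6 pairs of WT libraries, 0.80 to 0.89 in the 3 pairs of PROSER1 KO libraries and 0.82 to 0.89 in the 12 pairs of 1 of each. The share of Ighv signal that both libraries of a pair held in the same genes had medians of 68.3%, 70.2% and 69.5% in these pairs. The values of same-genotype pairs thus overlapped those of mixed pairs. All genes of a pair come from the same libraries and share their depth.

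The Ighv1 family held the highest share in all 7 libraries and Ighv11 the next, except in PROSER1 KO replicate 2, where Ighv5 was above it. Ighv1 (J558), with 73 members, held 28.9% to 41.8% of the Ighv signal, and Ighv11 (VH11), with 2 members, held 12.5% to 21.5%, of which 99.7% was Ighv11-2. Ighv5 held 5.91% to 14.3%, highest in PROSER1 KO replicate 2, and Ighv6 (J606) 4.39% to 11.03%, highest in WT replicate 4. Ighv8 reached 12.6% in WT replicate 3 against 3.23% to 6.74% in the other libraries, and Ighv4 (X24) reached 11.5% in WT replicate 1 against 2.62% to 5.73%. Ighv12, the CH27 family, held 0.162% to 0.799%, and Ighv15 and Ighv16 at most 0.008%. The groups overlapped in all 16 families.

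**Figure D3:**
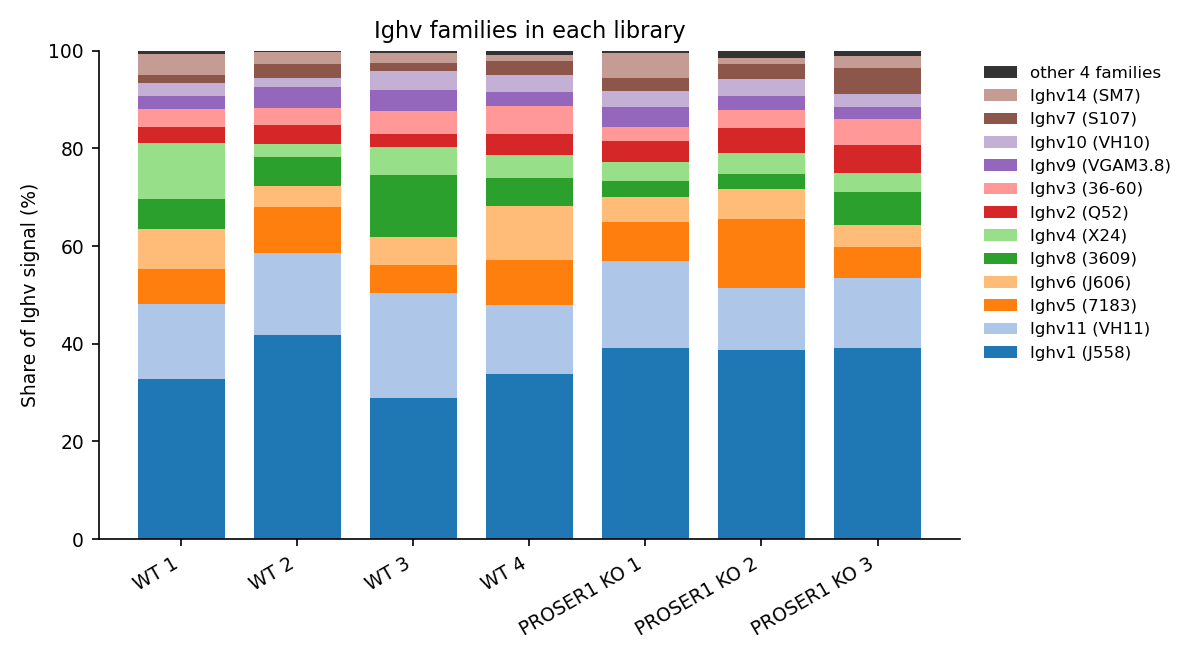
Share of the Ighv signal (%) by family in each library, as stacked bars for the 12 families with the highest mean share and the other 4 together. Ighv1 and Ighv11 form the lower part of each bar, and the Ighv8 band of WT replicate 3 (12.6%) and the Ighv4 band of WT replicate 1 (11.5%) are wider than in the other libraries.

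Along the locus, the members span 2437 kb of chromosome 12, from 113572927 to 116010093. The 31 members in the 500 kb nearest to the D segments held 36.005% to 39.5% of the Ighv signal, the narrowest range of the 5 stretches given here, and 17 of them had a mean of at least 1000. The share was 18.4% to 25.01% from 500 to 1000 kb, 12.2% to 19.0% from 1000 to 1500 kb, 10.8% to 17.7% from 1500 to 2000 kb and 7.92% to 16.1% beyond. The groups overlapped in each stretch. Ighv11-2 lies 475 kb from Ighv5-1, the first member of the array. Ighv5-2 (VH81X), the functional gene next to the D segments and known for its frequent use in early B-cell development, had only 204, 35.2, 153 and 189 normalized counts in WT and 87.6, 128 and 162 in PROSER1 KO. Per kb of exon Ighv11-2 was 296 times as high as Ighv5-2 (ratio of means). At the far end, the pseudogene Ighv1-86 had 1.04 normalized counts in PROSER1 KO replicate 1, which is 1 read pair, and 0 elsewhere, and Ighv6-1 was at 0 in all libraries.

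**Figure D4:**
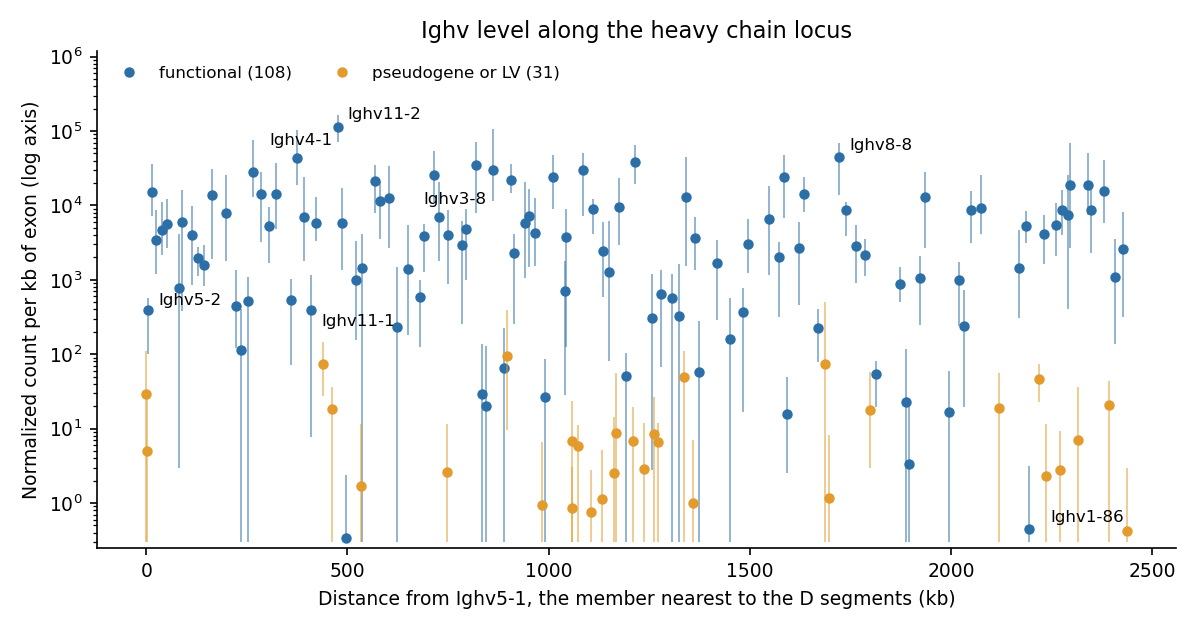
Mean normalized count per kb of exon (log axis) of each member against its distance in kb from Ighv5-1, with vertical lines from the lowest to the highest of 7 libraries (lines reaching the lower edge include 0), blue for the 108 functional genes and orange for the 31 others. High genes occur along the whole locus, Ighv11-2 stands highest, and the orange points stay low.

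The signal was spread over more genes in the libraries labelled PROSER1 KO by some measures of evenness but not by others. All of these measures come from the same shares. The 5 highest genes of a library held 42.4%, 38.0%, 48.1% and 36.3% of the Ighv signal in WT and 36.02%, 33.4% and 33.4% in PROSER1 KO. The number of genes needed to reach 50% of the signal was 8, 9, 6 and 9 in WT and 10, 10 and 11 in PROSER1 KO. These groups did not overlap, though PROSER1 KO replicate 1 lay close to WT replicate 4 in the share of the 5 highest genes. The genes needed to reach 90% were also separate but close, at 37 to 41 in WT and 42 to 43 in PROSER1 KO. So was the exponential of the Shannon entropy, at 29.4 to 38.5 and 39.2 to 42.2. The shares of the leading gene overlapped, at 14.1% to 21.4% in WT and 12.4% to 17.7% in PROSER1 KO. The effective number of genes by the inverse Simpson index, which gives most weight to the leading genes, was 18.1, 19.6, 13.3 and 22.4 in WT and 19.8, 25.9 and 24.4 in PROSER1 KO, and here the groups overlapped too. These values are descriptions of 7 libraries, with no test.

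Between the genotypes, 106 members with a mean of at least 10 entered the limma fit over 16251 genes, and 1 of them, 0.943%, passed an adjusted p of 0.05 and a fold change above 1.5. Over all tested genes 0.258% passed, 0.135% lower in PROSER1 KO. At an unadjusted p under 0.05 there were 12 members, 11.3%, against 9.73% of all tested genes. That count rests on single libraries, with 24 members without WT replicate 4 (22.9%, against 9.65% of all genes), 18 without WT replicate 3 (16.8%, against 10.1%) and 8 without PROSER1 KO replicate 2 (7.48%, against 9.33%), and with robust variance estimates it was 4. WT and PROSER1 KO values were fully separate in 5 members. Of these, 2 were higher in PROSER1 KO, where the share over all tested genes was 5.17%, and 3 were lower, where it was 4.83%. The median log2 fold change of the 106 was 0.16, with 63 above 0 and 43 below, and over all tested genes it was 0.00. It ran from -0.07 to 0.35 when single libraries were left out, and it was below 0 without WT replicate 3 and without PROSER1 KO replicate 3. DESeq2 on the recovered read pairs passed 6 Ighv genes, 5.61% of those with an adjusted p, against 0.873% of all such genes.

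The gene that passed in limma was Ighv3-8 (ENSMUSG00000076674, chromosome 12, 114322327 to 114322801), a functional gene of the 36-60 family. Its normalized counts were 1807, 2701, 3371 and 1614 in WT and 346, 520 and 753 in PROSER1 KO. All 3 libraries labelled PROSER1 KO lay below all WT libraries. WT had a mean of 2373 ± 817 (SD, n = 4) and PROSER1 KO of 540 ± 204 (SD, n = 3). Expression was 4.41-fold lower in PROSER1 KO, or -2.14 on the log2 scale (SE 0.30, limma adjusted p = 0.0206). The adjusted p was 0.0704 without WT replicate 2, 0.0601 without PROSER1 KO replicate 1 and 0.0927 without PROSER1 KO replicate 2, and it was 0.157 without the mean-variance trend and 0.154 with robust variance estimates. Of its 50-base stretches, 99.7% occur in no other Ighv gene. Ighv3-6 of the same family, printed above beside it, had 8755, 3937, 3907 and 18650 in WT and 4672, 6251 and 17495 in PROSER1 KO, which overlap.

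The other members without overlap between the groups did not pass in limma. Ighv11-1 was higher in the libraries labelled PROSER1 KO, as given above, by 3.98 on the log2 scale (SE 0.87, limma adjusted p = 0.143). The limma adjusted p fell to 0.0442 without WT replicate 3 and rose to as much as 0.428 with other single libraries left out. The log2 fold change became 3.30 without WT replicate 2, the library at 2.70 normalized counts. Ighv9-2 of the VGAM3.8 family had 349, 82.9, 0 and 495 in WT and 1439, 627 and 581 in PROSER1 KO, with an adjusted p of 0.543 from limma. Its log2 fold change of 3.71 became 1.72 without WT replicate 3, the library at 0. Ighv1-20 had 287, 350, 128 and 2200 in WT and 82.4, 78.7 and 28.8 in PROSER1 KO (-2.82 on the log2 scale, limma adjusted p = 0.282), which became -2.01 without WT replicate 4, the library at 2200. Ighv1-38, a pseudogene, had 38.5, 27.9, 28.7 and 18.5 in WT and 0, 5.92 and 1.92 in PROSER1 KO, close to the limit of 3 read pairs (-3.39 on the log2 scale, limma adjusted p = 0.0903). Ighv9-2 and Ighv9-1 share 95.4% of their V exon and Ighv1-20 shares 98.7% with Ighv1-37, so their reads are uncertain. Over all members, 29 had another Ighv gene at 97% identity or more.

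DESeq2 passed Ighv3-8, Ighv1-38, Ighv1-20 and Ighv9-1 as lower and Ighv11-1 and Ighv1-39 as higher in PROSER1 KO. Ighv9-1 had 1156, 312, 75.9 and 719 in WT and 78.2, 64.3 and 54.7 in PROSER1 KO, so WT replicate 3 lay within the PROSER1 KO values. The groups of Ighv9-1 and Ighv1-39 overlapped, and both were named after this result was seen.

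**Figure D5:**
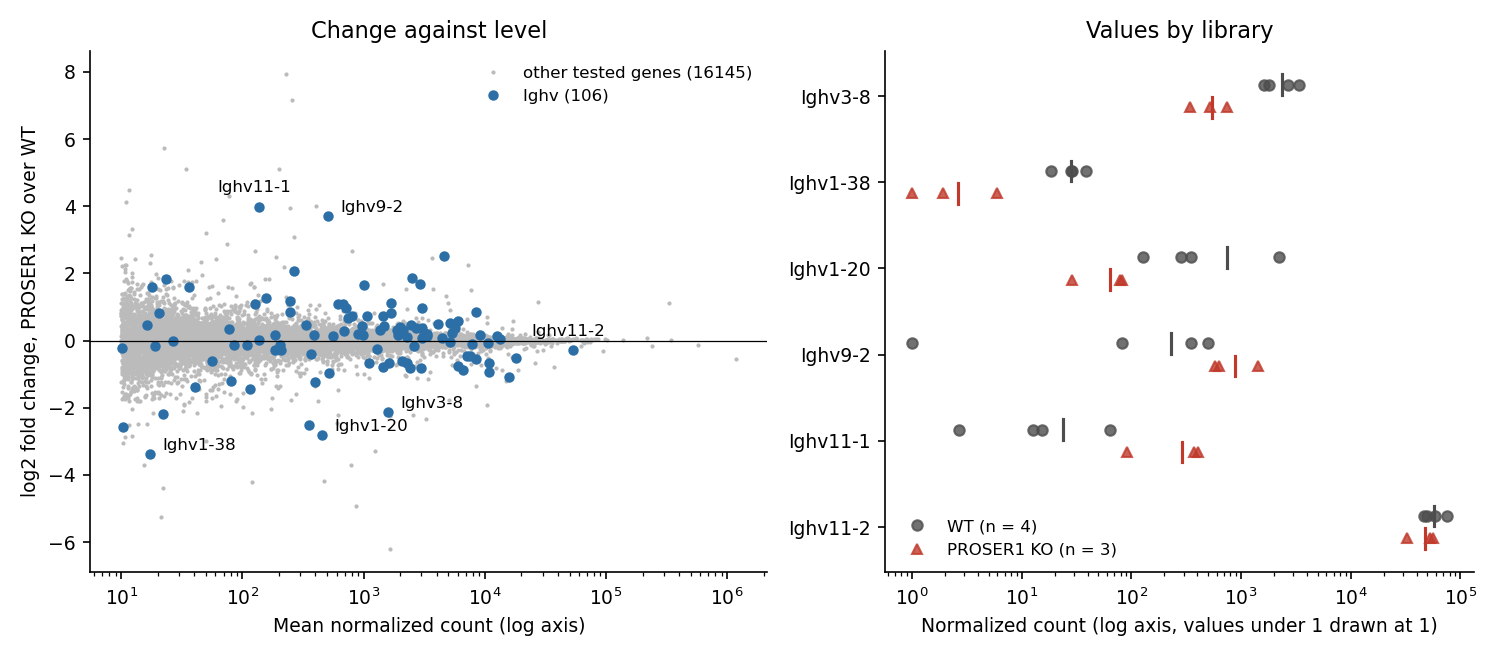
Left, log2 fold change of PROSER1 KO over WT against the mean normalized count (log axis) for the 106 tested Ighv genes (blue) and the other tested genes (grey); right, normalized counts by library (log axis, values under 1 drawn at 1, bars at group means) of the 5 Ighv genes without overlap between the groups and of Ighv11-2. Ighv3-8, at 346 to 753 in PROSER1 KO and 1614 to 3371 in WT, was the only gene of the 6 to pass in limma.

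The other genes of heavy chain assembly and expression were read for comparison, and 0 of them passed in limma, edgeR or DESeq2. Of the 8 constant genes, 7 were tested in limma, with 0 at an unadjusted p under 0.05. Ighm, the mu constant gene, had 1568036, 1279122, 830464 and 1890105 normalized counts in WT and 1137842, 687394 and 947499 in PROSER1 KO, and Igha, the alpha constant gene, had 149141, 100887, 161448 and 515047 in WT and 217504, 407796 and 745391 in PROSER1 KO. Igha thus made up 36.2% and 43.3% of the constant gene signal in PROSER1 KO replicates 2 and 3 and 7.27% to 20.98% in the other 5 libraries. The sum of the Ighv genes was 0.212 to 0.235 of the sum of the constant genes in every library. Of the 20 diversity genes, 11 were above 0 and 2 were tested. All 4 joining genes were tested, and their sums were 2144 to 4486 in WT and 1612 to 2968 in PROSER1 KO. The 12 genes of V(D)J recombination had 1 at an unadjusted p under 0.05 and the 14 factors of locus contraction and Ighv transcription had 2. Over all tested genes the share at that threshold was 9.73%. Rag1, which encodes a recombinase subunit, had 1240, 783, 744 and 686 in WT and 2920, 914 and 1182 in PROSER1 KO. PROSER1 KO replicate 1 stood above the rest and the groups overlapped.

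Markers of B-lineage cells were read beside the Ighv sums. All 11 genes of a plasma cell list (Jchain, Xbp1, Prdm1, Irf4, Sdc1, Mzb1, Tnfrsf17, Ell2, Pou2af1, Derl3 and Fkbp11) were above 0, and their sum was 177940 to 445973 in WT and 206663 to 309615 in PROSER1 KO. Jchain, the joining chain of secreted IgM and IgA, had 263799, 217345, 151607 and 384345 in WT and 199467, 179939 and 269328 in PROSER1 KO. It made up most of the plasma cell list sum in every library. WT replicate 4, PROSER1 KO replicate 3 and WT replicate 1 were, in this order, the highest libraries for the plasma cell list and for the Ighv sum, and WT replicate 3 was the lowest for both. The 8 mature B genes summed to 13367 to 27405 in WT and 10885 to 17868 in PROSER1 KO, and the 14 pro-B and pre-B genes to 36233 to 56791 and 36892 to 54703. In these 3 lists 0 genes passed in limma, edgeR or DESeq2, and 0 of 11, 2 of 8 and 5 of 14 genes respectively had an unadjusted p under 0.05 in limma, against the 9.73% of all tested genes. Dntt, which encodes the enzyme that adds bases at the joints, made up most of the pro-B and pre-B sums (27834 to 44858). Named after their values were seen, 4 genes of these lists did not overlap between the groups. Over all tested genes, 5.17% were higher and 4.83% lower in PROSER1 KO without overlap. Of the surrogate light chain genes, Igll1 and Vpreb2 had the higher values in PROSER1 KO. Igll1 had 14.02 ± 5.90 in WT and 44.4 ± 23.0 in PROSER1 KO (SD, limma adjusted p = 0.288). Vpreb2 had 23.3 ± 4.07 and 42.6 ± 11.9 (limma adjusted p = 0.425). Vpreb1 of the same list overlapped, at 24.3 to 51.9 in WT and 38.1 to 91.8 in PROSER1 KO. Vpreb3 did as well, at 11.5 to 42.9 in WT and 24.5 to 80.6 in PROSER1 KO. Fcer2a had the lower values in PROSER1 KO (58.4 ± 16.2 in WT and 24.8 ± 5.21, limma adjusted p = 0.204). So did Fcrla (1058 ± 361 in WT and 608 ± 128, limma adjusted p = 0.353). No gene of these lists was at 0 in all libraries, although an LSK sort removes cells with lineage markers, and the 8 lineage genes summed to 960 to 1920. The 8 LSK genes summed to 104210 to 116785. The part of these cells in the Ighv levels was not tested.

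The light chain variable genes, which encode the V part of the partner chain, had sums of 309242 to 766286 (kappa) and 23471 to 106807 (lambda) in WT and 356580 to 531922 and 24356 to 41067 in PROSER1 KO. The groups overlapped in both. Of 100 tested kappa variable genes 2 passed in limma, against 0.258% of all tested genes. An unadjusted p under 0.05 in limma was found for 19 of the 100, against 9.73% of all tested genes. The 2 genes that passed were both higher in PROSER1 KO. Igkv4-80 had 455, 682, 830 and 996 normalized counts in WT and 1689, 2261 and 3120 in PROSER1 KO (1.68 on the log2 scale, SE 0.27, limma adjusted p = 0.0418). Igkv4-81 was at 0 in WT replicates 1 to 3 and at 4.64 in WT replicate 4, and at 1189, 180 and 241 in PROSER1 KO (limma adjusted p = 0.00464). Of 3 tested lambda variable genes 0 passed, and 0 had an unadjusted p under 0.05. These light chain results were read from limma over all 7 libraries alone, with no other setting tried. For the Ighv genes the share under 0.05 ran from 3.77% with robust variance estimates to 28.3% with the replicate block.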

How the data were processed

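RNA of sorted LSK cells (polyadenylated, read pairs) was available from 4 WT and 3 PROSER1 KO libraries, grouped by their labels. The authors used Trimmomatic for trimming, STAR for mapping to mm10 and featureCounts for counting, and deposited a normalized signal per gene, which is the count of read pairs divided by 1 DESeq2 size factor per library. Versions and the strand setting are not given in the sources used here. Read pairs were recovered for 100% of values (whole within 0.01). V genes of similar sequence share reads, so counting can lose or misplace them.

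limma 3.58.1 (lmFit, eBayes with trend) was fitted to log2(normalized count + 1) of all genes whose mean reached 10, with Benjamini-Hochberg adjustment over all of them. The eBayes step draws the variance of each gene toward a trend over all tested genes. Their median within-group SD was 0.134, against 1.13 for the tested Ighv genes. The SE and p-value of an Ighv gene can therefore be smaller than its own spread between libraries would give. The pseudocount understates changes of low genes. The fit was tested on simulated data, where 180 of 197 changed genes were recovered (91.4%) with 6 false calls over 16259 genes. The simulated spread followed a common rule for all genes and was narrower than that of the Ighv genes (median within-group SD 1.13). The simulation therefore does not show how many changed Ighv genes would be recovered. Genes with no symbol (685) held at most 0.135% of read pairs. Positions, exon lengths and sequences come from GENCODE M21 (GRCm38), which matched all 185 Ighv genes, while the methods name M25. Members and lists were chosen with earlier results of these data known. Named genes were those passing in limma, the 3 highest of each library, the 15 highest means, the 3 highest and 3 lowest log2 fold changes among genes whose groups do not overlap, and Ighv6-1, Ighv5-2 and Ighv1-86 as points of position. Other settings tried were a pseudocount of 0.1 or 10, a minimum mean of 50 or none, eBayes with no trend or robust, TMM, edgeR 4.0.16, DESeq2 1.42.0, no fold change minimum, the replicate number as a block, and each library left out. Levels per kb of exon for the leading share were added after seeing the data. Promoter sequences were not analysed here.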

Additional observations from a re-analysis of the deposited data

Results flagged for a closer look

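The highest and the lowest WT library were set against the other WT libraries for 43 values (the named genes and the family shares, the Ighv sum, the leading share and the effective number), and 5 stood far from the rest. The limit used marks about 1 value in 20 only for normally distributed values that were not picked by level. Many of these genes were named for high values, Ighv6-6 among them as 1 of the 3 highest in WT replicate 4. The share that chance would mark here is therefore not known. PROSER1 KO, with 3 libraries, could not be read this way. Ighv6-6 had 38549 normalized counts in WT replicate 4, against 4749 to 9333 in the other WT libraries. Ighv1-78, of the J558 family, had 26173 in WT replicate 4, against 1018 to 5306. Ighv1-20 had 2200 in WT replicate 4, against 128 to 350 in the others. Ighv1-82 had 10758 in WT replicate 2, against 2271 to 3232. The Ighv8 family held 12.6% of the Ighv signal in WT replicate 3, against 5.64% to 6.31%. WT replicate 4, with 3 of these values, also had the highest Ighv sum (535116). Its plasma cell list sum (445973) and its Jchain level (384345), which is most of that list sum, were the highest as well. The part of these in the single-gene values was not tested.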

How the results depend on the processing

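The count of Ighv genes passing in limma (1) was 0 without the mean-variance trend, 6 with DESeq2 and 2 with the replicate number as a block, and 0 to 3 with single libraries left out. It was 0 without WT replicate 2 or PROSER1 KO replicate 2, 2 without PROSER1 KO replicate 3 and 3 without WT replicate 3. It was 1 in the other 11 alternatives, but the gene was Ighv1-38 with robust variance estimates and Ighv1-39 without PROSER1 KO replicate 1. The Ighv genes with an unadjusted p under 0.05 (12) were 9 with the trend left out, 4 with robust variance estimates, 30 with the replicate block and 8 to 24 with single libraries left out. Over all genes the count (42) was 17 without the trend, 80 with robust variance estimates, 165 with DESeq2, and 23 to 42 with single libraries left out, with 23 without PROSER1 KO replicate 2. The replicate block gave 35. Same-numbered libraries deviated together with correlations of 0.0226, 0.0575 and -0.106, so the numbers were not taken to pair the libraries. The median effective number of Ighv genes (19.8, inverse Simpson) was 38.5 as the exponential of the Shannon entropy and 30.3 without the leading gene of each library. The log2 ratio of Ighv sums kept within the spread between libraries, at -0.35 to 0.11 with single libraries left out, and was above 0 without WT replicate 4. The median share of the leading gene (15.5%) was 12.9% per kb of exon. The number of libraries limits the comparison between genotypes, since single V genes vary by several-fold within a genotype. Depth limits the members near 3 read pairs.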

Other observations

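The kappa light chain variable genes had a single leader as well. Igkv14-126 was the highest kappa variable gene in 7 of 7 libraries, with 96261, 85314, 87190 and 143549 normalized counts in WT and 87107, 58970 and 103054 in PROSER1 KO, and the groups overlapped. It held 19.7%, 20.4%, 28.2% and 18.7% of the kappa variable signal in WT and 20.97%, 16.5% and 19.4% in PROSER1 KO. As background, this gene encodes the light chain V part known to pair with Ighv11-2 in phosphatidylcholine-binding antibodies. WT replicate 3 had the highest share and PROSER1 KO replicate 2 the lowest for both Igkv14-126 and Ighv11-2. Igkv14-126 was picked out after its values were seen, and bulk libraries do not show which chains came from the same cell.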
